A study of Rattus norvegicus with 8 samples.

Results

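The 7 genes described here encode adhesion receptors and stored proteins of activated endothelium, the single cell layer that lines blood vessels. They were taken by name from the 18090 genes of an RNA-seq table of rat abdominal aorta, with Cdh5 as the gene to which each was set in a ratio. All 7 were in the table, and 6 passed the filter on low values, which asked for at least 1 FPKM in at least 4 of 8 libraries; Sele did not. FPKM are mapped fragments scaled by gene length and by library total, so that levels can be compared between genes. In 4 aortas a filter paper with 10% iron chloride (FeCl3) lay on the outer surface of the vessel for 5 min, and in 4 others the paper carried 0.9% saline for 5 min. All animals were labelled wild type, and no source used here gave their strain, age, sex or time of harvest. FeCl3 injures the wall by oxidation and starts thrombosis, and the comparison asks how the wall's transcripts differ with that injury. Whole vessel RNA was read, so fewer cells of a type and less RNA per cell cannot be told apart.

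Endothelial cells keep von Willebrand factor, P-selectin and angiopoietin 2 in Weibel-Palade bodies, storage granules that fuse with the cell surface within minutes of injury. Released von Willebrand factor tethers platelets, P-selectin lets leukocytes roll, and angiopoietin 2 modulates the Tie2 receptor. E-selectin, ICAM-1 and VCAM-1 are instead made anew after inflammatory signals, largely through NF-kB, and bind leukocytes; ICAM-2 is present on resting endothelium. Release of stored protein needs no change in its transcript, and transcripts were what was measured.

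Between 24304434 and 30283292 fragments stood behind a library, as worked out from the steps of its FPKM values. A pair of saline libraries stood apart. The summed FPKM of 18 endothelial identity genes was 261 to 410 after FeCl3, against 71.4 in saline replicate 1 and 185, 405 and 554 in the other saline libraries. Saline replicate 1 was the lowest of the 8 libraries for 15 of these 18 genes, and for 34.6% of all tested genes. Haemoglobin transcripts took 16.4% to 34.1% of fragments after FeCl3, against 16.5% in saline replicate 4, with the remaining controls at 1.30% to 1.63%. For many members and lists, values without saline replicate 1, without saline replicate 4 or without each in turn are also given.

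No member differed between FeCl3 and saline beyond the spread between libraries. In the test across 11921 genes with limma, 0 of the 6 tested members passed a Benjamini-Hochberg adjusted p of 0.05, where 0% of all tested genes did. At an unadjusted p under 0.05 there were also 0 members, beside 16.6% of all tested genes, or 4.42% counting only genes that were higher after FeCl3. For 0 of the 6 did the FeCl3 and saline values fail to overlap, as they did for 9.81% of tested genes. The log2 fold change (of FPKM + 1, FeCl3 minus saline) was above 0 for 6 of 6 members and for 29.8% of tested genes, and the members' median was 0.40 beside -0.25 over all. The sign turned for Icam1, Vcam1 and Angpt2 with FPKM rescaled to TPM, which set the median of all genes to -0.90, and for Icam1, Angpt2 and Selp with the haemoglobin level as a covariate. In other settings Vwf and Selp had an unadjusted p under 0.05, and no member passed after adjustment in any. The members fall into 2 kinds by level: Vwf, Selp, Sele and Icam2 were lowest in saline replicate 1, while Icam1, Vcam1 and Angpt2 were not. This grouping was made after the values were seen.

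**Figure D1:**
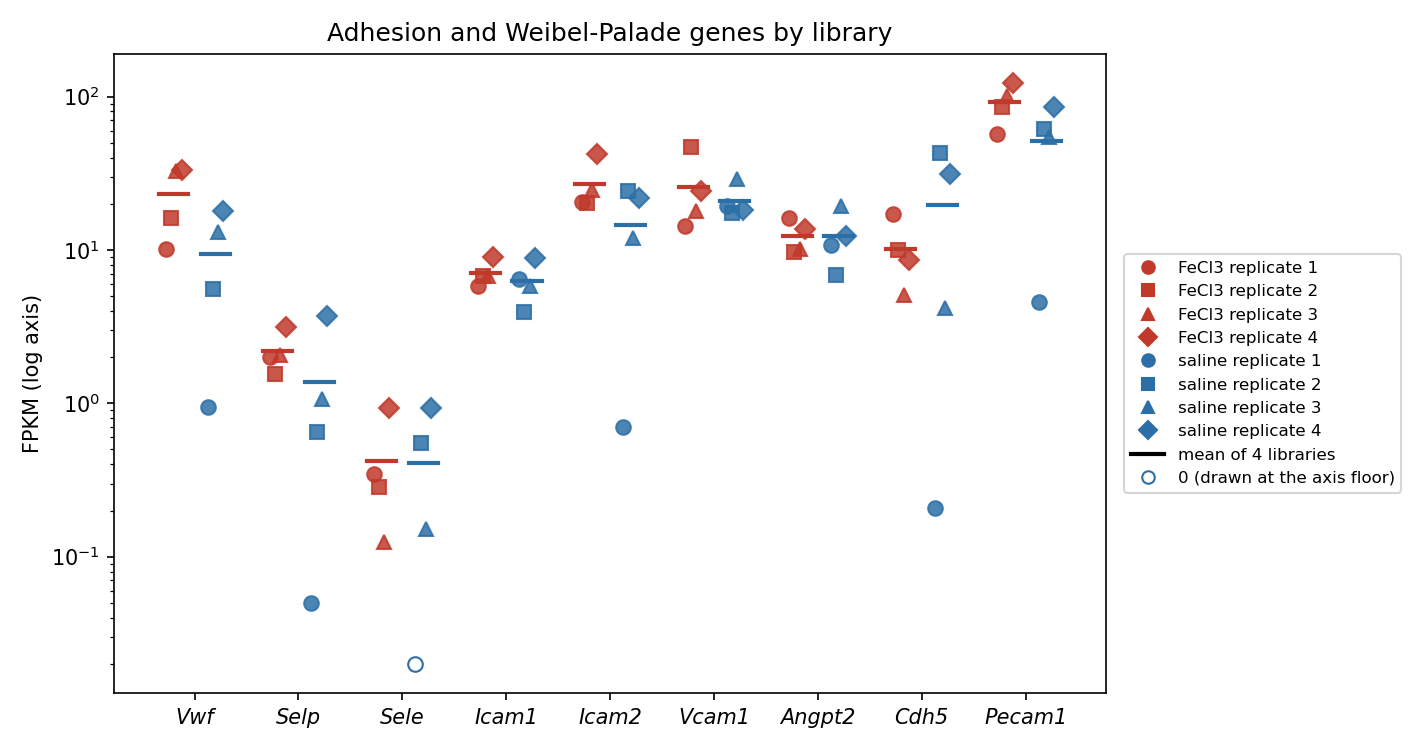
FPKM on a log axis of the 7 members, Cdh5 and Pecam1 in 4 FeCl3 (red) and 4 saline (blue) libraries, with 1 symbol per replicate number and a bar at each mean. Saline replicate 1 sits far below the other libraries for Vwf, Selp, Icam2, Cdh5 and Pecam1 but within them for Icam1, Vcam1 and Angpt2.

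By level, Icam2, Vcam1 and Vwf led after FeCl3, with means of 26.8, 25.8 and 23.1 FPKM, followed by Angpt2 (12.4), Icam1 (7.08), Selp (2.18) and Sele (0.421). The ranges of Icam2, Vcam1, Vwf and Angpt2 overlapped from each to the next, and those of Angpt2, Icam1, Selp and Sele did not. After saline the order was Vcam1 (21.0 FPKM), Icam2 (14.6), Angpt2 (12.3), Vwf (9.43), Icam1 (6.27), Selp (1.37) and Sele (0.408). There only Icam1 and Selp were separated, as the ranges of all other neighbours overlapped.

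Vwf, whose product carries factor VIII as well as tethering platelets, had 10.1, 16.2, 32.9 and 33.1 FPKM after FeCl3, against 0.942, 5.57, 13.2 and 18.1 FPKM after saline, in replicate order. FeCl3 replicates 3 and 4 were above every control, and FeCl3 replicates 1 and 2 lay within the saline range. The mean was 23.1 ± 11.7 FPKM in FeCl3 aortas and 9.43 ± 7.64 FPKM in saline aortas (SD, n = 4 each). The log2 fold change of 1.50 had a 95% interval of -0.12 to 3.12 (limma adjusted p = 0.319). Without saline replicate 1 it was 0.84 (limma adjusted p = 0.373), with the haemoglobin level as a covariate 0.04, and with FPKM rescaled to TPM 0.92. It was 1.75 with median-of-ratios scaling (limma, unadjusted p = 0.0314, adjusted p = 0.347), 1.81 with haemoglobin genes left out of the total (unadjusted p = 0.0435, adjusted p = 0.397) and 1.94 without saline replicate 4 (unadjusted p = 0.0247, adjusted p = 0.232).

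Selp, P-selectin, which platelets also store, had 2.00, 1.54, 2.06 and 3.14 FPKM after FeCl3, against 0.0498, 0.645, 1.07 and 3.73 FPKM after saline. The highest and the lowest of all 8 values were controls, saline replicate 4 and saline replicate 1. These levels rest on 140 to 276 fragments per library after FeCl3 and on 5 to 313 after saline, and the 5 fragments of saline replicate 1 allow 0.0162 to 0.116 FPKM (exact 95% Poisson interval, for counting error only). The log2 fold change was 0.63 with an interval of -0.36 to 1.61 (limma adjusted p = 0.466). It was 0.31 without saline replicate 1 (adjusted p = 0.633) and 1.03 without saline replicate 4 (unadjusted p = 0.0116, adjusted p = 0.182), and with the haemoglobin level as a covariate it was -0.70 (adjusted p = 1.00). Adding 0.1 in place of 1 to these low FPKM values gave 1.40 (limma adjusted p = 0.436).

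Angpt2, a ligand that can oppose angiopoietin 1 at Tie2, had 16.1, 9.75, 10.1 and 13.6 FPKM after FeCl3, against 10.7, 6.87, 19.2 and 12.3 FPKM after saline. The FeCl3 values all lay inside the saline range. Its means were 12.4 ± 3.04 FPKM in FeCl3 aortas and 12.3 ± 5.17 FPKM in saline aortas (SD, n = 4 each), with a log2 fold change of 0.07 and an interval of -0.65 to 0.78 (limma adjusted p = 0.924). The sign turned without FeCl3 replicate 1 (-0.06) and without saline replicate 2 (-0.16).

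Sele, E-selectin, was the scarcest member, with 12 to 92 fragments per library after FeCl3 and 0 to 88 after saline. It had 0.347, 0.284, 0.125 and 0.929 FPKM after FeCl3, against 0, 0.551, 0.152 and 0.931 FPKM after saline. FeCl3 replicate 4 and saline replicate 4 were the 2 highest, with 92 and 88 fragments. The 0 of saline replicate 1 allows up to 0.0265 FPKM, the worth of 3 fragments, or 0.0326 FPKM by the exact 95% Poisson interval used for Selp. The means differed by 0.0126 FPKM (FeCl3 minus saline; exact two-sided permutation p = 1, where 4 against 4 can reach 0.0286). The difference was -0.157 when FeCl3 replicate 4 was left out, -0.124 when saline replicate 1 was, and -0.0730 when saline replicate 3 was.

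Icam1 and Vcam1 bind leukocyte integrins and are known for induction by cytokines through their promoters, which are shown because induced transcription is the step that transcript levels bear on. The sequences are from RefSeq on GRCr8, which is not the build named for the files (mRatBN7.2), and run from 250 bases before to 50 after the gene's start; such a window was found for 3 of the 7 members. The Vcam1 window is chr2:206742734-206743033, minus strand, and that of Icam1 is chr8:27829595-27829894, plus strand. Capitals mark matches on either strand to the NF-kB consensus, to TTCNNNGAA, the gamma-activated sequence of STAT factors, and to TATAAA.
Vcam1: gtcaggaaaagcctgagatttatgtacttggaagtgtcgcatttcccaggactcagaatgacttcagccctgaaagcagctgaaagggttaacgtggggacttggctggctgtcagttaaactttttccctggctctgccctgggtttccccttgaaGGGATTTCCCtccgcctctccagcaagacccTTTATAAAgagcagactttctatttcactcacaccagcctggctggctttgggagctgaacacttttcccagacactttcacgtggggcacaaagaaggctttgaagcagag
Icam1: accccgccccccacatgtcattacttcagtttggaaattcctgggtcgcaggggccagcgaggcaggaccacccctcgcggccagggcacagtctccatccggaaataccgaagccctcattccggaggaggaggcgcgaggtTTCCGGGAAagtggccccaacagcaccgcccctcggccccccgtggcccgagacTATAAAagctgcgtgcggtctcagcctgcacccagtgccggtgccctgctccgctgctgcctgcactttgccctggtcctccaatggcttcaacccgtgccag
Vcam1 held the NF-kB consensus 93 to 84 bases before its start, matched on both strands, as 7.51% of 33469 promoters did. It also held TATAAA on both strands in overlapping positions, as 14.2% of promoters did on at least 1 strand. Icam1 held TTCNNNGAA 107 to 99 bases before its start, matched on both strands, as 8.87% of promoters did, and TATAAA on its own strand. The different motifs did not overlap each other. The Sele window, chr13:78936264-78936563 on the plus strand, held no match to any of these patterns. Only exact matches were sought, so an unmarked stretch, in Icam1 or Sele too, is not shown to lack a variant site. A match is not a binding site, and binding was not measured.

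Icam1 was the steadiest member, with 5.83, 6.75, 6.75 and 8.99 FPKM after FeCl3, against 6.47, 3.95, 5.84 and 8.82 FPKM after saline. Its highest library had 2.28 times the FPKM of its lowest, and 82.3% of tested genes varied more over the 8 libraries (SD of log2(FPKM + 1)). The log2 fold change was 0.18 with an interval of -0.40 to 0.76 (limma adjusted p = 0.731). Rescaling to TPM gave -0.48 and the haemoglobin covariate -0.34, while median-of-ratios scaling gave 0.38 and leaving haemoglobin genes out of the total 0.46.

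Vcam1 had 14.4, 46.6, 18.0 and 24.3 FPKM after FeCl3, against 19.2, 17.5, 29.1 and 18.1 FPKM after saline. FeCl3 replicate 2 alone stood above all controls, and FeCl3 replicate 1 below all of them. The log2 fold change was 0.18 with an interval of -0.65 to 1.00 (limma adjusted p = 0.816), and -0.14 without FeCl3 replicate 2. With FPKM rescaled to TPM it was -0.54. In saline replicate 1, where Cdh5 was at 0.208 FPKM, Vcam1 stood at 1.06 times its median in the other 7 libraries. Of the 18 endothelial identity genes 15 were lowest there. Erg, Esam and Flt1, named after their values were seen, stood at 1.11, 1.66 and 1.00 times their medians. Vcam1 is also made by smooth muscle cells and fibroblasts, and which cells its transcripts came from was not tested.

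Icam2, an integrin ligand of resting endothelium, had 20.5, 20.2, 24.4 and 42.2 FPKM after FeCl3, against 0.699, 24.1, 11.9 and 21.7 FPKM after saline. Saline replicate 1 stood far below the rest, and saline replicates 2 and 4 lay within the FeCl3 range. The log2 fold change was 1.33 with an interval of -0.47 to 3.13 (limma adjusted p = 0.406), and 0.45 without saline replicate 1 (adjusted p = 0.464). With the haemoglobin covariate it was 0.33, and with FPKM rescaled to TPM 0.76, against 1.70 without saline replicate 4. In saline replicate 1 Icam2 was at 0.0322 times its median in the other 7 libraries, Vwf at 0.0581 and Selp at 0.0249, against 0.959 for Icam1 and 0.869 for Angpt2.

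**Figure D2:**
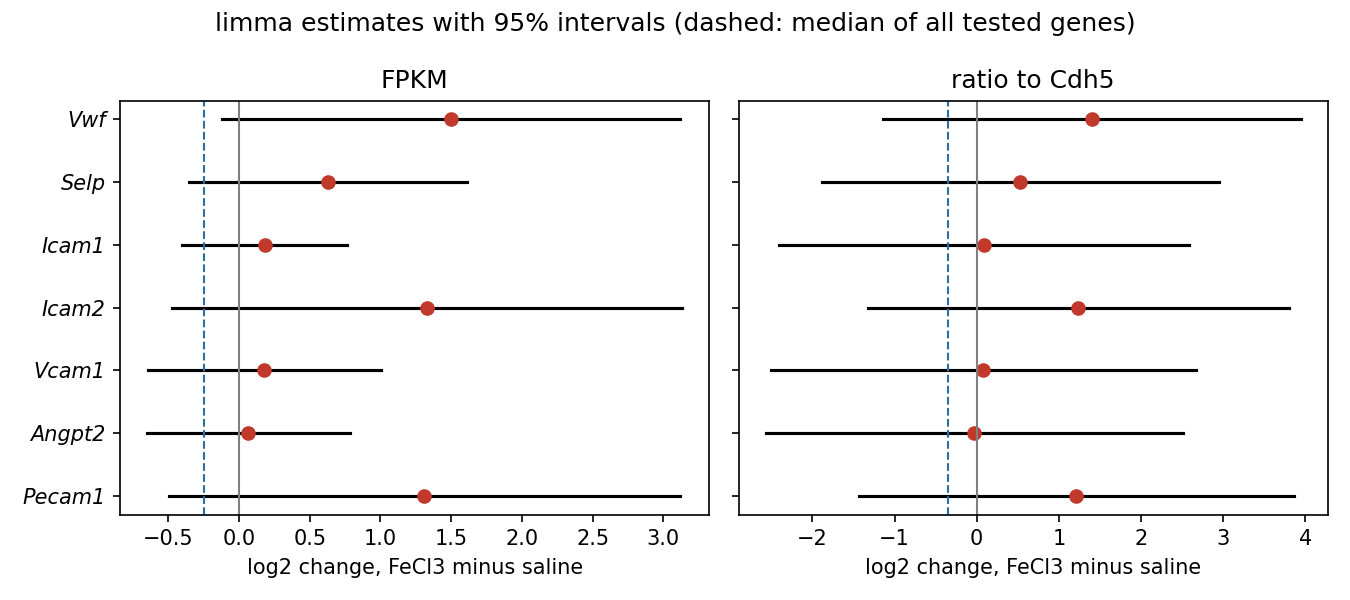
limma log2 change, FeCl3 minus saline, of 6 members and Pecam1 with 95% intervals, on FPKM (left) and as ratio to Cdh5 (right); the dashed line is the median of all tested genes, -0.25 and -0.34. Every interval spans 0, and those of the ratios are wider than those of FPKM.

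Cdh5, the cadherin of endothelial junctions used as the denominator, was itself uneven. It had 17.2, 10.0, 5.06 and 8.54 FPKM after FeCl3, against 0.208, 43.0, 4.20 and 31.2 FPKM after saline, so that the controls held both extremes. Only 26 fragments stood behind the lowest value. Its log2 fold change was 0.10 with an interval of -2.30 to 2.49 (limma adjusted p = 0.968), and 3.61% of tested genes varied more over the 8 libraries. The ratios below carry this spread, since each divides by Cdh5 in the same library.

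As a ratio to Cdh5, no member passed either, in a test that had little room to call any gene. The spread of Cdh5 enters every ratio, and the smallest limma adjusted p over all genes was 0.9997. A difference in these ratios is therefore neither shown nor excluded. The test used log2(FPKM + 1) of the gene minus log2(FPKM + 1) of Cdh5, which pulls in the ratios of low values, so its changes differ from those of the plain FPKM ratios printed per library. Of 11920 genes tested in this way, 0 passed an adjusted p of 0.05 and 0.587% had an unadjusted p under 0.05; of the 6 members 0 did in each case. Groups did not overlap for 1.95% of genes and for 0 members. The change was above 0 for 5 of the 6 members and for 24.4% of all tested genes, and the members' median was 0.31 beside -0.34 for all. Since the same Cdh5 value is subtracted from every gene, each member's change is its change in FPKM shifted by 0.10.

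Vwf ratios to Cdh5 were 0.586, 1.61, 6.49 and 3.88 after FeCl3, against 4.53, 0.129, 3.13 and 0.580 after saline. The tested log2 change, with 1 added to both genes, was 1.40 with an interval of -1.14 to 3.94 (limma adjusted p = 1.00), and the plain ratios differed by 1.12 in mean log2. FeCl3 replicate 3 alone exceeded every control. Icam2 ratios were 1.19, 2.01, 4.83 and 4.94 after FeCl3, against 3.37, 0.561, 2.83 and 0.696 after saline (tested log2 change 1.23, interval -1.33 to 3.80; plain ratios 0.98). FeCl3 replicates 3 and 4 exceeded every control. Selp ratios were 0.116, 0.153, 0.407 and 0.368 after FeCl3, against 0.240, 0.0150, 0.256 and 0.120 after saline (tested log2 change 0.53, interval -1.89 to 2.95; plain ratios 1.15). For Selp again the same pair of FeCl3 libraries exceeded every control. Sele ratios were 0.0201, 0.0282, 0.0246 and 0.109 after FeCl3, against 0, 0.0128, 0.0361 and 0.0299 after saline, and FeCl3 replicate 4 alone exceeded the controls. Without saline replicate 1 the tested changes of Vwf, Icam2 and Selp were 1.75, 1.36 and 1.22, and without saline replicate 2 they were 0.60, 0.92 and -0.30.

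For the 3 members whose FPKM stayed level in saline replicate 1, that library had the highest ratio and saline replicate 2 the lowest. Vcam1 ratios were 0.835, 4.64, 3.55 and 2.85 after FeCl3, against 92.6, 0.406, 6.94 and 0.581 after saline. The value of 92.6 had an exact 95% interval of 63.0 to 142 from 1751 and 26 fragments. Angpt2 ratios were 0.936, 0.970, 2.00 and 1.59 after FeCl3, against 51.5, 0.160, 4.58 and 0.395 after saline, and Icam1 ratios were 0.338, 0.672, 1.33 and 1.05 after FeCl3, against 31.2, 0.0918, 1.39 and 0.283 after saline. In all 3 the FeCl3 libraries lay between saline replicates 2 and 3. The plain ratios of Vcam1, Icam1 and Angpt2 were lower after FeCl3, with differences in mean log2 of -0.49, -0.45 and -0.59, while the tested changes, with 1 added to both genes, were 0.08, 0.08 and -0.03, so the direction for Vcam1 and Icam1 turns on that added value. The tested changes were 1.05, 1.11 and 0.94 without saline replicate 1, and -0.72, -0.81 and -0.98 without saline replicate 2. Over all tested genes the median was 0.57 and -0.998 in these settings, and no gene passed in limma.

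**Figure D3:**
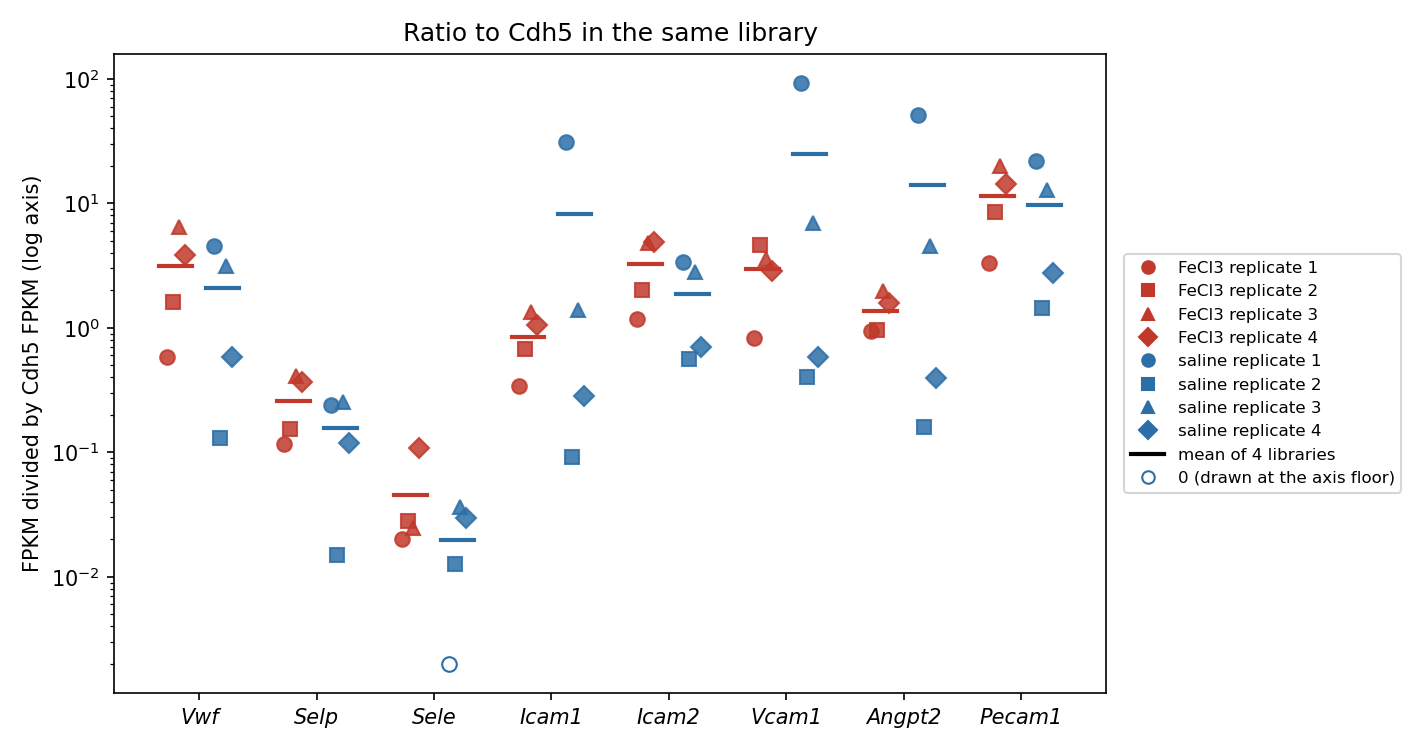
FPKM of the 7 members and Pecam1 divided by Cdh5 FPKM of the same library, on a log axis, in 4 FeCl3 (red) and 4 saline (blue) libraries, with a bar at each mean. On this axis, saline values span wider than FeCl3 values for Pecam1 and for each member above 0 in all libraries. For Vcam1 the saline values run from 0.406 to 92.6.

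Pecam1, an adhesion molecule of endothelial junctions that platelets and leukocytes also carry, had 57.3 to 123 FPKM after FeCl3, against 4.58 to 85.9 after saline. Relative to Pecam1, Vwf was at 0.176, 0.190, 0.324 and 0.270 after FeCl3, against 0.205, 0.0901, 0.243 and 0.210 after saline. Icam2 relative to Pecam1 was 0.237 to 0.357 after FeCl3, against 0.153 to 0.391 after saline. These ratios spread less than those to Cdh5, and they overlapped between groups. With Pecam1 as the denominator the log2 changes were 0.19 for Vwf, 0.02 for Icam2, -0.68 for Selp, -1.13 for Icam1, -1.13 for Vcam1 and -1.24 for Angpt2, beside a median of -1.56 over all tested genes, and 0 of the 6 members passed in limma. The 1 gene that passed with this denominator was Ucp1, the uncoupling protein of brown fat (log2 change -4.86, limma adjusted p = 0.0214), which is no member and was named after its value was seen.

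**Figure D4:**
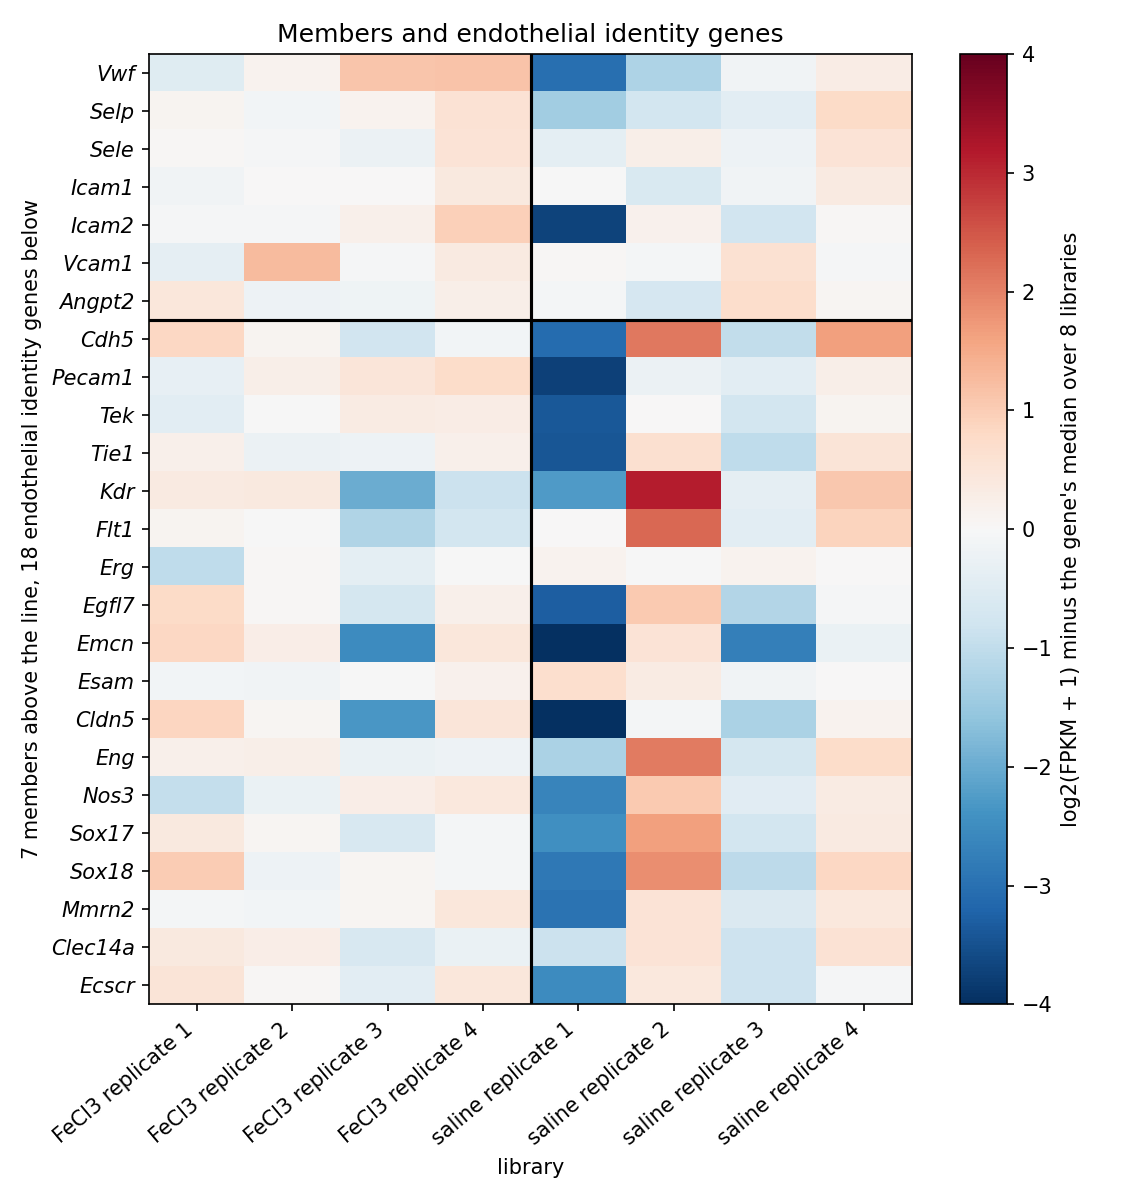
log2(FPKM + 1) minus each gene's median over the 8 libraries, for the 7 members (above the line) and 18 endothelial identity genes (below), with FeCl3 libraries left of saline libraries. Saline replicate 1 is low for 4 members and 15 identity genes, and Cdh5 and Kdr are highest in saline replicate 2.

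Of the 18 endothelial identity genes tested, 13 had a log2 fold change above 0 and 5 below, with a median of 0.40, and 0 passed (limma, smallest adjusted p = 0.347). Over all tested genes 29.8% were above 0, with a median of -0.25. The most abundant identity genes were Pecam1, with 91.7 ± 27.5 FPKM in FeCl3 aortas and 51.6 ± 34.1 FPKM in saline aortas, and Cldn5, a tight junction protein, with 49.6 ± 31.1 and 27.6 ± 22.1 FPKM in the same order (SD, n = 4 each). Without saline replicate 1 the median of the identity genes was -0.13 with 6 of 18 above 0, and without saline replicate 4 it was 0.78 with 13 above 0. Over the 6 members the median was 0.26 and 0.69 in these settings. Identity genes did not share 1 pattern: 10 of the 18 were highest in saline replicate 2, as Cdh5 was, and none of the members was.

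Among tested genes that are no members, those most like each member over the 8 libraries were found by Pearson's r of log2(FPKM + 1), as a description of 8 libraries that share one scaling. Vwf was most like Gja5, a connexin of arterial endothelium (r = 0.97, Spearman's rho = 0.98), then Tm4sf1 (0.97 and 0.93) and Plcg2 (0.96 and 0.93). Without saline replicate 1 the r of Vwf with Gja5 was 0.97. Icam2 was most like Clec1a (r = 0.99, rho = 0.90), Tek, the Tie2 receptor (0.98 and 0.93), and Cd93 (0.98 and 0.93), and with Tek r was 0.82 without saline replicate 1. The r with Cdh5 was 0.75 for Icam2, 0.53 for Selp and 0.37 for Vwf, and -0.18, -0.18 and -0.24 for Icam1, Vcam1 and Angpt2.

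Selp was most like Trpm2 (r = 0.98, rho = 1.00), a cation channel of leukocytes, then Slfn4 (0.98 and 0.98) and Gypc, a red cell membrane glycoprotein (0.97 and 0.95). Vcam1 was most like Scfd1 (r = 0.97, rho = 0.79), Ttc23 (0.97 and 0.88) and Ranbp1 (0.96 and 0.93), Angpt2 like Trim23 (0.93 and 0.98), Zfp394 (0.92 and 0.93) and Sv2b (0.91 and 0.86), and Icam1 like LOC689800 (0.88 and 0.67), Dtwd1 (0.86 and 0.76) and Wipf1 (0.86 and 0.76).

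Blood cell markers were unevenly spread over the libraries, and saline replicate 4 stood out in them as it did for Selp. The summed FPKM of 12 platelet and megakaryocyte genes (Pf4 and Nrgn the most abundant) was 1397, 2897, 1580 and 1102 after FeCl3, against 36.6, 51.2, 114 and 1965 after saline. That of 12 leukocyte genes (Lyz2 and Cd74) was 609 to 1240 after FeCl3, against 18.5, 162, 110 and 834 after saline. That of 12 red cell genes (Hba-a1 and Hba-a2) was 284472 to 612628 after FeCl3, against 22629 to 28315 in saline replicates 1 to 3 and 285392 in saline replicate 4. Saline replicate 4 had the highest Selp and, in all 3 sums, the highest level of the controls. FeCl3 replicate 2 had the highest platelet sum and the lowest Selp of its group. FeCl3 replicate 4 had the highest leukocyte sum and the highest Selp of its group. All 36 of these genes had a log2 fold change above 0, beside 29.8% of all tested genes, and 0 passed. Platelet, leukocyte and red cell genes had medians of 2.45, 2.74 and 3.23, beside -0.25 over all tested genes. The medians were 2.07, 1.90 and 2.88 without saline replicate 1, and 3.35, 3.55 and 4.19 without saline replicate 4. No gene of the 3 lists was at 0 in all libraries, and their part in the values of Selp and Vwf was not tested.

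Other wall cells varied too. The summed FPKM of 8 smooth muscle genes (Tagln and Acta2) was 3900 to 11181 after FeCl3, against 5290 to 27546 after saline, with the highest sum in saline replicate 1. The log2 fold change was below 0 for 8 of 8, with a median of -0.98. Over all tested genes 29.8% were above 0, with a median of -0.25. Fibroblast genes (Col3a1 and Dcn) summed to 1653 to 5438 FPKM after FeCl3, against 1843 to 5033 after saline, with a median of 0.90 over 8 genes. Adipocyte genes (Fabp4 and Adipoq) summed to 435 to 10771 after FeCl3, against 2.26 to 9595 after saline, lowest in saline replicate 1, with a median of 1.52 over 6 genes. Lymphatic endothelial genes (Ccl21 and Mmrn1) had sums of 12.4 to 239 after FeCl3 and 1.45 to 127 after saline, with a median of 1.17 over 4 tested genes. With saline replicate 1 left out, smooth muscle, fibroblast, adipocyte and lymphatic genes had medians of -0.52, 0.30, 0.29 and 0.74. With saline replicate 4 left out, the medians were -1.08, 1.41, 1.99 and 1.63 in the same order. In these lists 0 genes passed, and their part in the members' values was not tested.

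Cargo and exocytosis genes of the Weibel-Palade body, other than the members, had 6 of 19 tested genes with a log2 fold change above 0 and 13 below, with a median of -0.18, and 0 passed (limma, smallest adjusted p = 0.267). Both lay near the values over all tested genes, of which 29.8% were above 0 with a median of -0.25. Without saline replicate 1 the list's median was -0.27, beside -0.33 over all tested genes. Cd63, a granule membrane tetraspanin found in many cells, had 193 ± 59.4 FPKM in FeCl3 aortas and 230 ± 49.5 FPKM in saline aortas, and Vamp3, a membrane fusion protein, 58.7 ± 9.53 in FeCl3 aortas and 66.3 ± 12.5 in saline aortas (SD, n = 4 each). Edn1, the vasoconstrictor peptide endothelin 1, and Plat, tissue plasminogen activator, both released from endothelial granules, were named after their values were seen. Edn1 had 2.00, 10.6, 13.8 and 17.6 FPKM after FeCl3, against 0.261, 2.93, 3.43 and 4.69 FPKM after saline (log2 fold change 1.57, limma adjusted p = 0.286). FeCl3 replicates 2, 3 and 4 were above every control, and FeCl3 replicate 1 lay within them. Plat had 31.3, 35.2, 25.5 and 28.9 FPKM after FeCl3, against 97.6, 47.9, 74.7 and 30.9 FPKM after saline (log2 fold change -0.91, limma adjusted p = 0.267).

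Around Angpt2, all 5 tested genes of the angiopoietin and Tie list had a log2 fold change above 0, with a median of 0.54, and 0 passed (smallest limma adjusted p = 0.464). Over all tested genes 29.8% were above 0, with a median of -0.25. Without saline replicate 1 the list's median was 0.23 with 3 of 5 above 0, and without saline replicate 4 it was 0.96. Tek had 22.5 ± 5.24 FPKM in FeCl3 aortas and 14.7 ± 10.2 FPKM in saline aortas, and Tie1 17.2 ± 3.01 in FeCl3 aortas and 15.3 ± 13.01 in saline aortas (SD, n = 4 each). Of 12 tested NF-kB induced genes, 7 were above 0 and 5 below, with a median of 0.20 and 0 passing (smallest limma adjusted p = 0.251). The median was 0.05 without saline replicate 1. The smallest adjusted p was that of Ccl2, a chemokine gene, named after its values were seen. Ccl2 also had the highest log2 fold change of the list, 2.51, where the lowest of the list was -0.42. It had 8.26 to 85.1 FPKM after FeCl3, against 0.0423 to 7.29 FPKM after saline. Its groups did not overlap, as was so for 9.81% of tested genes. Nfkbia, the inhibitor that NF-kB itself induces, had 66.2 ± 32.3 FPKM in FeCl3 aortas and 60.9 ± 12.2 FPKM in saline aortas, and F3, tissue factor, 92.8 ± 95.8 and 27.9 ± 29.4 FPKM in the same order (SD, n = 4 each).

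Von Willebrand factor is bound by platelet receptors. Of 5 tested platelet ligands of von Willebrand factor, with its protease on the list, 4 were above 0 and 1 below, with a median of 1.72 and 0 passing (smallest limma adjusted p = 0.245). Over all tested genes 29.8% were above 0, with a median of -0.25. The list's median was 1.44 without saline replicate 1 and 2.35 without saline replicate 4. Itga2b, the platelet fibrinogen receptor's alpha chain, had 31.9 ± 8.98 FPKM in FeCl3 aortas and 8.87 ± 14.9 FPKM in saline aortas. Its partner Itgb3 had 16.1 ± 4.54 in FeCl3 aortas and 18.8 ± 10.6 in saline aortas (SD, n = 4 each). In replicate order after saline, Itga2b was at 0.563, 1.24, 2.42 and 31.2 FPKM, and Itgb3 at 17.9, 4.41, 23.9 and 29.1 FPKM. Which cells the Itgb3 transcripts came from was not tested.

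Other adhesion and junction genes of endothelium had 3 of 8 tested genes above 0 and 5 below, with a median of -0.16 and 0 passing (smallest limma adjusted p = 0.297). Over all tested genes 29.8% were above 0 and the median was -0.25. The summed FPKM of the 10 genes of the list was 387 to 490 after FeCl3, against 551 to 773 after saline, so the sums did not overlap. Values of single genes failed to overlap for 9.81% of tested genes. The sum leans on its most abundant genes, Mcam and Cd99. Mcam itself overlapped, with 157 to 174 FPKM after FeCl3 and 165 in saline replicate 2. Without saline replicate 4 the list's median log2 fold change was 0.0038. Mcam, an adhesion molecule that smooth muscle also carries, had 167 ± 8.45 FPKM in FeCl3 aortas and 316 ± 143 FPKM in saline aortas, and Cd99 148 ± 32.9 in FeCl3 aortas and 185 ± 26.7 in saline aortas (SD, n = 4 each). Next to Icam1 on GRCr8 lies its relative Icam4, which red cells carry. Icam4 and another relative, Icam5, were named after their values were seen. Icam5 had 0.0915 ± 0.151 FPKM in FeCl3 aortas and 0.0886 ± 0.0890 FPKM in saline aortas (SD, n = 4 each), below the filter. Icam4 had 1.35, 0.346, 0.230 and 0.892 FPKM after FeCl3, against 0, 0.0487, 0 and 0.514 FPKM after saline, also below the filter.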

How the data were processed

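PolyA RNA of 8 abdominal aortas was sequenced, 4 per condition. The deposited table gives FPKM per gene and library, made by the authors; fastp, HISAT2, HTSeq and mRatBN7.2 are named, per the submitters' processing notes, with versions, annotation and strand setting not given in the sources used here. Columns were matched to samples by title, and 0 value columns were left unmapped. Nothing in the labels pairs the libraries.

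Library totals and fragments per gene were recovered from the steps in which low FPKM values come: for 100% of 18090 genes the values came out whole within 0.02 fragments, and lengths came out whole at totals of 24304434 to 30283292. The fragments found made up at least 99.7% of each total. For 1 gene, Hbb, the count was doubled to reach it. At most 1.31% of genes had equal fragments in any of 28 pairs of libraries, so none was a duplicate. Poisson and binomial intervals cover counting error only.

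log2(FPKM + 1) was compared with limma 3.58.1 in R 4.3.3 (trend, two-sided, Benjamini-Hochberg, threshold 0.05) over 11921 genes with at least 1 FPKM in at least 4 libraries, and again after subtracting log2(Cdh5 FPKM + 1) of the same library. The pseudocount understates changes of low genes. P-values measure the spread between samples, described as biologically independent. Sele was compared by an exact permutation test over 70 splits. The members and lists were chosen with earlier results of these data known. Named were the 7 members, Cdh5, 3 genes most like each tested member, and the 2 most abundant genes of each list; others are said to be named after their values were seen. Results of 2 further lists are not reported here. Both fits were tested on simulated data, where 198 of 200 genes changed 4-fold were recovered on FPKM and 177 as ratios. False calls numbered 5 and 0. Genes there varied independently, each with an SD at or below the median SD, so this recovery need not hold for these libraries. RefSeq (GRCr8) gave promoters and gene order. Other steps used Python 3.11.15 and plots matplotlib 3.10.9.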

Additional observations from a re-analysis of the deposited data

Results flagged for a closer look

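In 28 groups of 4 libraries, 5 single libraries lay so far from the others of their group that the gap exceeded Dixon's 95% limit for the share of the group's range. Chance flags about 1 group in 20 where values are independent and normally spread, which the ratios, with their shared denominator, need not be. In saline replicate 1 the ratio to Cdh5 was 31.2 for Icam1, 92.6 for Vcam1 and 51.5 for Angpt2, against 0.0918 to 1.39, 0.406 to 6.94 and 0.160 to 4.58 in the other saline libraries in that order. These 3 values share 1 denominator, the 26 Cdh5 fragments of that library. Vcam1 in saline replicate 3 had 29.1 FPKM, against 17.5 to 19.2 FPKM in the other saline libraries. The ratio of Sele to Cdh5 in FeCl3 replicate 4 was 0.109, against 0.0201 to 0.0282 in the other FeCl3 libraries, from 92 fragments of Sele.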

How the results depend on the processing

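The count of 0 genes in the FPKM comparison was 160 without saline replicate 4 and 0 with any other single library left out (range 0 to 160). With FPKM rescaled to TPM it was 3288 (65 higher, 3223 lower). TPM divides by the summed FPKM, of which haemoglobin genes held 36.0% to 64.9% after FeCl3. They held 4.58% to 6.58% in saline replicates 1 to 3 and 43.6% in saline replicate 4, and their part in these calls was not tested. The count was 51 (all higher) with the controls cut to saline replicates 2 and 3, an alternative chosen after seeing the data. No member was among the calls in any of these settings. In the ratio comparison 0 genes passed with any 1 library left out, 18 with those 2 controls alone, and 1 with Pecam1 as the denominator. At an unadjusted p under 0.05, 527 genes were higher and 1454 lower as reported, 1065 and 503 with median-of-ratios scaling, and 1060 and 394 with haemoglobin genes left out of the total; these scalings set the median of all genes to -0.05 and 0.01 from -0.25. The sign of the log2 fold change turned with FPKM rescaled to TPM for Icam1 (-0.48), Vcam1 (-0.54) and Angpt2 (-0.63), and with the haemoglobin covariate, which overlaps with the groups, for Selp (-0.70), Icam1 (-0.34) and Angpt2 (-0.0688). With 1 library left out it ran from -0.16 to 0.30 for Angpt2 and from -0.14 to 0.40 for Vcam1.

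The log2 change of the ratio turned with a pseudocount of 0.1 for Icam1 (-0.32) and Vcam1 (-0.35). It turned with Pecam1 as the denominator for Selp (-0.68), Icam1 (-1.13) and Vcam1 (-1.13), with Tie1, chosen after seeing the data, for Selp (-0.18), Icam1 (-0.63) and Vcam1 (-0.63), and with 8 endothelial identity genes for Icam1 (-0.25) and Vcam1 (-0.25). For Angpt2 it turned with the haemoglobin covariate (1.36) and with those 2 controls alone (0.60). With 1 library left out it ran from -0.30 to 1.22 for Selp, from -0.81 to 1.11 for Icam1, from -0.72 to 1.05 for Vcam1 and from -0.98 to 0.94 for Angpt2. Vwf and Icam2 kept a positive sign under all 17 alternatives of each comparison, and never passed. As FPKM they ran from 0.04 to 1.94 and from 0.33 to 1.75, and as ratios from 0.19 to 2.00 and from 0.02 to 1.75. Alternatives that changed only the filter on low values or left out limma's trend do not alter a gene's estimate, so they could not turn a sign. The Sele difference ran from -0.157 to 0.187 FPKM with 1 library left out. With saline replicate 1 or 4 left out, settings chosen after seeing the data, the median log2 fold change ran from -0.13 to 0.78 over the endothelial identity genes and from -0.20 to 0.0038 over the other adhesion and junction genes. The causes were not tested. No paired analysis was possible because the labels give the conditions no shared replicate numbers that mark a shared animal or day. The 5 Selp and 0 Sele fragments of saline replicate 1 and its 26 Cdh5 fragments limit what can be read from that library.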
